A study of Mus musculus with 6 samples.

Results

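The MHC class II presentation genes are the 7 genes H2-Aa, H2-Ab1, H2-Eb1, H2-DMa, H2-DMb1, Cd74 and Ciita, chosen by name for their role in showing peptides to CD4 T cells. They are 7 of the 55335 genes in the count table, and all 7 were among the 16612 genes with enough counts to be tested. They were measured in bulk RNA of the aorta of wild-type (WT) C57BL/6 mice, spelled c57b6l in the labels, aged 6 weeks (young, 3 libraries) or 6 months (aged, 3 libraries). The study describes the mice as male and bought from a supplier, with the fat around the aorta dissected away, a piece of vessel taken from each mouse and no treatment. The labels number the libraries as repeats and do not say that each is another mouse, so p-values measure the spread between these libraries. The comparison asks how the level of these genes differs between young and aged aorta.

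MHC class II molecules are pairs of an alpha and a beta chain that hold peptides cut from proteins taken up by a cell and show them at its surface to CD4 T cells. Dendritic cells, B cells and macrophages make them throughout, while other cells, such as those of the vessel wall, can be induced to do so by interferon gamma. The transactivator encoded by Ciita binds no DNA itself but joins the factors assembled on the X and Y boxes of class II promoters, and is regarded as the master switch of the family.

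The promoter sequences show the boxes that the shared regulator works through. The RefSeq promoter table (GRCm38.p6) held 4 of the 7 genes, namely H2-Aa, H2-Eb1, H2-DMa and H2-DMb1. Both strands of the 250 bases before each transcript start were searched for the core of the X box (AACNGATG), the Y box (GATTGG, an inverted CCAAT box) and the cyclic AMP element (TGACGTCA). Below, 150 bases before the start are given for H2-Aa (chr17:34287824-34287973, minus strand) and H2-Eb1 (chr17:34305717-34305866, plus strand), written 5′ to 3′ with matches in capitals. For H2-DMb1, 30 bases from the X box core are given (chr17:34153099-34153128, plus strand), since its GENCODE transcripts begin further upstream than its RefSeq start. The Y box of H2-DMb1 follows directly after the last base shown.
H2-Aa: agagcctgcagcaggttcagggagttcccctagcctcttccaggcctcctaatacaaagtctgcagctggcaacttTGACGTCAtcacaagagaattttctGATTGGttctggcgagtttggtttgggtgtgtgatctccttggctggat
H2-Eb1: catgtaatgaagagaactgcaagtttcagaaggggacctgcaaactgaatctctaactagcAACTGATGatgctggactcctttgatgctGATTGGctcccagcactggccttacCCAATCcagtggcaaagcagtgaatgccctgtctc
H2-DMb1: AACTGATGatgctaggctgattcactcagt

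H2-Eb1 and H2-DMb1 held the X box core in the form AACTGATG, with its first base at -89 and -92 from the RefSeq start, and a Y box in the same orientation with its first base at -60 and -62. H2-Eb1 had another Y box on the opposite strand at -35. H2-Aa had a Y box at -49 and the cyclic AMP element at -74, and the exact X box core was not found in its window. H2-DMa had 2 promoters in the table, and the only match was a Y box at -199 of the second. The 150 bases before these starts (chr17:34122682-34122831 and chr17:34125368-34125517) lie inside the GENCODE span of H2-DMa, from 34119541 to 34139101. Other starts of this gene were not searched, so the search does not show that it lacks the boxes. Over all 32851 promoters of the table, 1.98% held the X box core, 14.6% the Y box and 1.55% the cyclic AMP element. The X box core followed by a Y box in the same orientation, with 18 to 26 bases between them, was found in 5 promoters (0.0152%), those of H2-Eb1, H2-DMb1, H2-DMb2, H2-Eb2 and BC051142. This spacing was set after the sequences had been seen, so the count is a description.

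**Figure D1:**
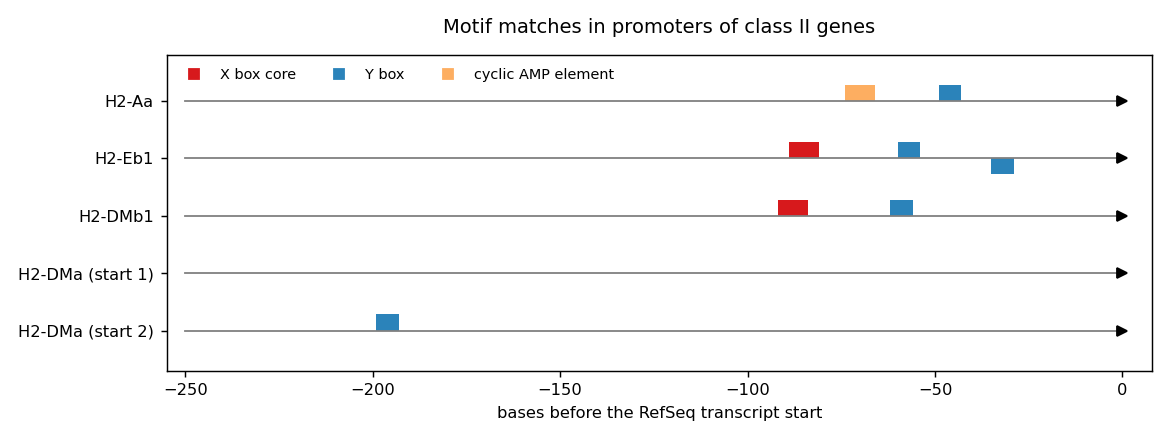
Matches to 3 motifs in the promoters of 4 class II genes, as bases before the RefSeq transcript start (x axis). Boxes above a line match the strand of the gene and boxes below it the opposite strand, and H2-Eb1 and H2-DMb1 carry an X box core followed by a Y box while H2-Aa carries a cyclic AMP element and a Y box.

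The genes lie in few places of the mouse genome, given as GRCm38 coordinates from GENCODE M21. Of the 7 genes, 5 stand in 1 stretch of chromosome 17. H2-DMa spans 34119541 to 34139101, H2-DMb1 34153072 to 34160230, H2-Ab1 34257689 to 34269419 and H2-Eb1 34305867 to 34316674, all on the plus strand. H2-Aa lies between H2-Ab1 and H2-Eb1, from 34282744 to 34287823 on the minus strand. Cd74 lies on chromosome 18 from 60803848 to 60812652, and Ciita on chromosome 16 from 10480059 to 10528418, both on the plus strand. H2-DMa shares 360 of its 3448 exon bases with Brd2 on the opposite strand, and Ciita shares 329 of 9535 with Dexi. Whether the counting used strand is not stated, so reads from these stretches cannot be assigned to 1 gene of the pair with certainty.

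Total counts lay between 31049632 and 45832185 per library, so that 3 counts, the limit that a count of 0 allows, stand for 0.0619 to 0.106 CPM. CPM are counts scaled to a common total after edgeR's TMM correction of the library sizes, and such limits cover counting error only. Young replicate 1 did not match the stated sex, with 14806 counts of the X-inactivation RNA Xist against 7 to 24 in the other libraries, and 53 of Y-linked Ddx3y against 1488 to 2117. Aged replicate 2 carried the most adipocyte RNA, with a summed level of 2050 CPM for 6 markers against 97 to 746 elsewhere. Values without these libraries are given below. The tissue label was met by smooth muscle, whose 6 markers summed to 27300 to 39300 CPM. Mitochondrial genes took 14.9% to 21.2% of the counts in young and 23.1% to 30.4% in aged libraries.

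The class II genes were rare in the aorta beside its muscle genes. Together they took between 0.00503% and 0.0108% of the counts of a library. Per length, as FPKM (read counts divided by library size and by gene length, averaged over the 6 libraries), Cd74 was the most abundant at 15.8 and stood above 87.4% of the genes tested. H2-Eb1 at 5.92, H2-Ab1 at 4.61, H2-Aa at 4.29 and H2-DMb1 at 3.53 FPKM followed, above 56.4% to 69.3% of genes. H2-DMa at 0.812 FPKM stood above 26.1%, and Ciita at 0.0697 FPKM above only 1.81%. Within each library, Cd74 was above and Ciita below all the other members, and H2-Eb1 was above H2-Ab1 in 6 of 6. The order of the neighbours H2-Ab1 and H2-Aa changed between libraries of the same age, so they do not differ beyond their spread. H2-DMb1 was above H2-Aa in 3 of 3 young libraries, at 4.77, 4.32 and 4.65 against 3.69, 3.90 and 2.69 FPKM, and below it in 3 of 3 aged libraries, at 2.87, 2.60 and 1.98 against 3.97, 6.54 and 4.92 FPKM. FPKM of Acta2, the actin of smooth muscle, were 235 to 1050 times those of Cd74.

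Between young and aged aorta, none of the 7 genes passed the adjusted threshold. The mean levels of the 3 peptide-binding chains and of Cd74 were higher in aged aorta, by a fitted 1.63 to 2.01 times, and that of H2-DMb1 was lower. H2-DMa and Ciita differed by less than their spread. In bulk RNA, fewer cells of a type and less RNA per cell cannot be told apart, and this holds for every value that follows.

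H2-Aa encodes the alpha chain of the I-A molecule. It had 14.7, 15.1 and 10.3 CPM in young replicates 1, 2 and 3, and 17.7, 29 and 23.2 CPM in aged replicates 1, 2 and 3. Every aged library lay above every young one. The means were 13.4 ± 2.71 and 23.3 ± 5.66 CPM (SD, n = 3 each). The log2 fold change was 0.80, with a standard error of 0.25 and a 95% interval of 0.22 to 1.38. Its p was 0.0138 before and 0.390 after Benjamini-Hochberg adjustment over all genes tested, by edgeR's quasi-likelihood test.

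H2-Ab1, its partner beta chain, had 12.5, 12.2 and 5.83 CPM in young and 12.5, 17.6 and 19.7 CPM in aged libraries. Young replicate 1 and aged replicate 1 were equal to the digits given, and the unrounded values alone kept the groups apart. Mean CPM with SD over 3 libraries was 10.2 ± 3.78 and 16.6 ± 3.68, and the fit gave a log2 fold change of 0.71 (standard error 0.33, 95% interval -0.08 to 1.49, edgeR adjusted p = 0.517). Without young replicate 3, the lowest library, it was 0.44.

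H2-Eb1 encodes the beta chain of the I-E molecule. It was at 9.66, 9.51 and 6.88 CPM in young and 10.7, 21.8 and 19.9 CPM in aged libraries. Aged replicate 1 stood just above the young libraries, and the other aged libraries far above them. The log2 fold change was 1.01 (standard error 0.31, 95% interval 0.29 to 1.72), the largest of the 7 genes, with an unadjusted p of 0.0126 and an adjusted p of 0.390 by edgeR. The group means were 8.68 ± 1.57 and 17.5 ± 5.91 CPM (SD, n = 3 each). The alpha chain of I-E is not made in C57BL/6 mice, which carry a deletion in that gene. Its entry H2-Ea-ps had 0 counts in all 6 libraries.

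Cd74 encodes the invariant chain, which fills the groove of new class II molecules and guides them to the endosome. It had 25.2, 26.3 and 13.3 CPM in young and 37.1, 38.0 and 39.8 CPM in aged libraries. The aged libraries lay close together and above all young ones, and young replicate 3 was the lowest. Mean CPM with SD over 3 libraries was 21.6 ± 7.25 and 38.3 ± 1.38. The log2 fold change was 0.82 (standard error 0.26, 95% interval 0.21 to 1.44). By edgeR the p was 0.0157 before and 0.392 after adjustment. Without young replicate 3 the log2 fold change was 0.58.

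H2-DMa and H2-DMb1 encode the chains of H2-DM, which exchanges the invariant chain fragment for antigen peptides. H2-DMa was at 2.60, 4.20 and 1.28 CPM in young and 2.83, 3.98 and 4.39 CPM in aged libraries. The groups overlapped, and its log2 fold change was 0.47 (standard error 0.46, 95% interval -0.60 to 1.54, edgeR adjusted p = 0.730). Without young replicate 2, the highest young library, it was 0.95, and without young replicate 3, the lowest, it was 0.15. H2-DMb1, unlike its partner, had a lower mean in aged aorta. It had 8.44, 7.41 and 7.84 CPM in young and 5.69, 5.14 and 4.18 CPM in aged libraries. Each aged library was below each young one, and the spread was narrow in both groups. The means were 7.90 ± 0.516 and 5 ± 0.765 CPM (SD over 3 libraries each), which is a log2 fold change of -0.66 (standard error 0.22, 95% interval -1.18 to -0.14) with a p of 0.0202 before and 0.415 after adjustment by edgeR.

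H2-DMb1 has a close copy, H2-DMb2, as its neighbour on chromosome 17 from 34143307 to 34151555, and how the authors' counting divided reads matching both is not stated. H2-DMb2 had 3, 58 and 26 counts in young and 6, 0 and 6 in aged libraries, too few for testing. Added together, the 2 genes had 8.5, 9.08 and 8.60 CPM in young and 5.87, 5.14 and 4.39 CPM in aged libraries, a sum chosen after the values had been seen. The sum, like H2-DMb1 alone, did not overlap between the groups.

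Ciita was close to the limit of these libraries. It had 45, 36 and 5 counts in young and 29, 18 and 31 in aged libraries, or 0.929, 1.03 and 0.146 CPM against 0.873, 0.477 and 1.10 CPM. The 5 counts of young replicate 3 have an exact Poisson 95% interval of 1.62 to 11.7, which covers counting error only. Young replicate 3 was the lowest and the other young libraries overlapped the aged ones. The means of 0.703 ± 0.486 and 0.816 ± 0.314 CPM (SD, n = 3 each) gave a log2 fold change of 0.20 (standard error 0.75, 95% interval -1.56 to 1.96, edgeR adjusted p = 0.939). The intervals of young replicates 1 and 2, at 32.8 to 60.2 and 25.2 to 49.8 counts, lay above it, so these libraries differed beyond counting error. With this spread, differences of several fold in either direction lay within the interval of the fit for Ciita. Leaving out young replicate 3 turned the sign, to -0.26.

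**Figure D2:**
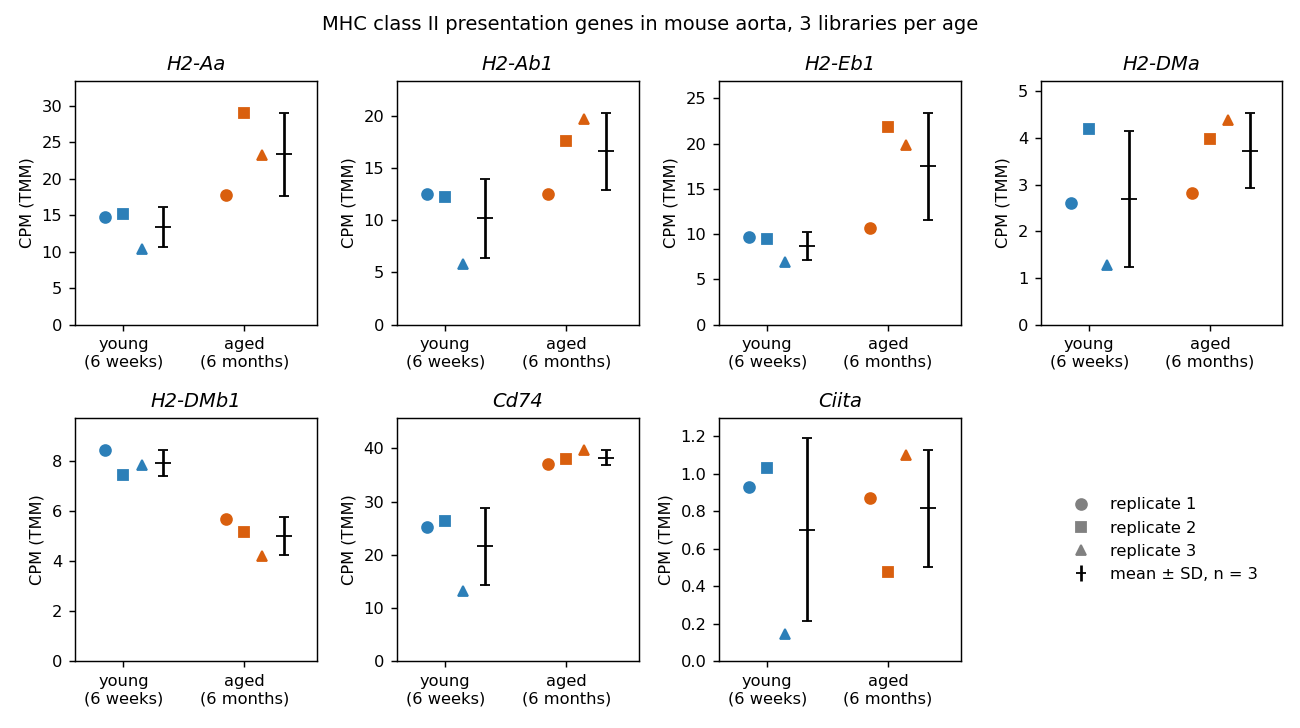
Level of each class II gene in CPM after TMM scaling (y axis, from 0, with its own range per gene) in the 3 young and 3 aged libraries, with bars for the mean ± SD. H2-Aa, H2-Eb1 and Cd74 are higher in all aged libraries, H2-Ab1 is equal in young 1 and aged 1 to the digits given, H2-DMb1 is lower in all aged libraries, and H2-DMa and Ciita overlap. On library totals in place of TMM, H2-Ab1 and H2-Eb1 also overlap.

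The counts over the 7 genes were read against all genes tested. By edgeR's adjusted p, 0 of 7 were called, beside 0% of all 16612 genes, with a lowest adjusted p of 0.189 over all genes. By DESeq2, 0 of 7 were called, beside 2.26% of genes, and the lowest adjusted p of a member was 0.0946, for H2-Eb1. At an unadjusted p below 0.05 in edgeR, 3 members were higher in aged aorta (H2-Aa, H2-Eb1 and Cd74), beside 5.56% of all genes, and 1 was lower (H2-DMb1), beside 4.82%. The groups did not overlap for 4 members that were higher, beside 7.74% of all genes, and for H2-DMb1 as the member that was lower, beside 8.78%. The median log2 fold change was 0.71 over the members and 0.02 over all genes tested. Since the members were chosen with earlier results known, these counts are given without a test.

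The scale mattered for some of these directions. Scaled to library totals, the median log2 difference over all genes moved from 0.013 with TMM to -0.218, and the deposited FPKM gave -0.192. The mitochondrial share, which was higher in every aged library, moved with that shift, and its part was not tested. On both of these scales H2-Aa and Cd74 were still higher and H2-DMb1 lower in every aged library, while H2-Ab1 and H2-Eb1 overlapped. For H2-Aa this rested on a near tie between aged replicate 1 and young replicate 2. These had 16.7 and 16.5 CPM of the library total, and 3.97 and 3.90 FPKM. Over all genes tested, the share lower in every aged library was 22.2% on library totals and 20.9% in FPKM, and the share higher was 3.05% and 3.24%. As CPM of the library total, H2-Eb1 had 10.2, 10.4 and 7.60 in young and 10.1, 20.3 and 17.6 in aged libraries. H2-Ab1 had 13.2, 13.4 and 6.44 in young and 11.8, 16.5 and 17.4 in aged libraries. The lowest aged library, replicate 1, was below the highest young one in both genes.

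Leaving out young replicate 1 and aged replicate 2 together kept every sign, an alternative chosen after seeing the data. The log2 fold changes were then 0.69 for H2-Aa, 0.84 for H2-Ab1, 0.91 for H2-Eb1, 0.96 for Cd74, 0.40 for H2-DMa, -0.62 for H2-DMb1 and 0.74 for Ciita. By edgeR, 0 of 7 were past the adjusted threshold, the lowest adjusted p being 0.274.

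Ratios within a library do not depend on how libraries are scaled, and 4 of them were compared between the ages with an exact two-sided permutation test, which cannot go below 0.1 with 3 against 3 libraries. The I-A chains were present in nearly equal amounts per length, with an H2-Aa to H2-Ab1 FPKM ratio of 0.798 to 1.20 and a median of 0.898 over the 6 libraries. H2-Eb1 was at 1.02 to 1.63 times H2-Ab1, with a median of 1.23. Cd74 exceeded H2-Ab1 by 3.10 to 4.55 times, with a median of 3.31. H2-DMa was at 0.153 to 0.248 of H2-Ab1, and 5 of the 6 libraries lay between 0.153 and 0.166. On the log2 scale, aged minus young was 0.03 for H2-Aa (exact permutation p = 1), 0.19 for H2-Eb1 (p = 0.5), 0.12 for Cd74 (p = 0.9) and -0.16 for H2-DMa (p = 1), each over H2-Ab1, with an adjusted p of 1 for all 4. The groups overlapped in all 4 ratios.

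The H2-DMb1 to H2-DMa FPKM ratio, chosen after its values were seen, varied far more. It was 6.78, 3.75 and 12.8 in young and 4.24, 2.68 and 1.97 in aged libraries. The highest value came from young replicate 3, where H2-DMa had 44 counts, and the groups overlapped through young replicate 2 and aged replicate 1.

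**Figure D3:**
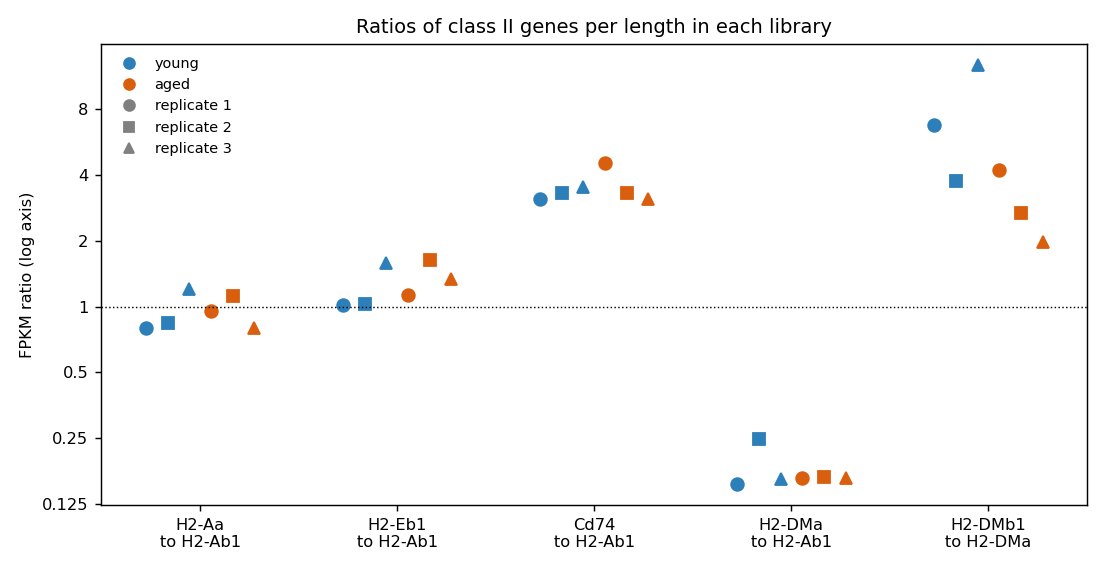
FPKM ratios of pairs of class II genes in each library (y axis, log scale), with colour for age and symbol for replicate. The 4 ratios over H2-Ab1 overlap between ages, and the H2-DMb1 to H2-DMa ratio spreads from 1.97 to 12.8.

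Across libraries, the 4 genes H2-Aa, H2-Ab1, H2-Eb1 and Cd74 followed a common course. The mean of their log2 CPM, centred on the 6 libraries, was -0.18, -0.16 and -0.94 in young and 0.07, 0.63 and 0.58 in aged libraries. Young replicate 3 was the lowest in each of the 4. The root mean square difference of a gene from this mean course was 0.112 for H2-Aa, 0.132 for H2-Ab1, 0.174 for Cd74 and 0.179 for H2-Eb1, against a median of 0.647 over all genes tested. These 4 genes make up the mean themselves, which favours them. H2-DMa, which does not enter the mean, was at 0.309, while Ciita was at 0.782 and H2-DMb1 at 0.850, farther than the median gene. H2-DMb1 ran the other way, from 0.43, 0.24 and 0.32 in young to -0.14, -0.28 and -0.58 in aged libraries.

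Outside the 7 genes, 7 genes were nearer to this course than H2-Eb1. The 10 nearest of all tested genes over the 6 libraries were Plekha7 (0.115), Gm15411 (0.155), Pde8a (0.168), Bid (0.168), Gm6877 (0.172), Vps13a (0.173), Prkag2os2 (0.177), Phlda3 (0.183), Sdcbp2 (0.184) and mt-Nd6 (0.185). With 6 libraries and 16612 genes such near courses are a description. None of the 10 is on the lists of leukocyte markers, and mt-Nd6 is encoded by the mitochondrial genome, whose share differed between the ages.

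The cells that usually carry class II were read from marker lists as summed CPM. The 14 macrophage markers summed to 231, 223 and 246 CPM in young and 592, 326 and 452 CPM in aged libraries. Every aged library was above every young one, 13 of the 14 markers had a higher mean there and the median log2 fold change was 1.39. By edgeR 0 passed, and 11 were higher at an unadjusted p below 0.05, beside 5.56% of all genes. By DESeq2 7 passed, beside 2.26% of genes. The defining marker Adgre1 had 153, 86 and 87 counts in young and 325, 156 and 167 in aged libraries, and Csf1r had 12.3 to 14.7 CPM in young and 16.6 to 37.0 CPM in aged libraries. Mertk, a receptor for dying cells, took a large part of this sum, with 70.2, 98.1 and 129 CPM in young and 64.1, 158 and 79.7 CPM in aged libraries (log2 fold change 0.02). Without it, a choice made after its values were seen, the macrophage sums were 161, 125 and 117 CPM in young and 528, 168 and 373 CPM in aged libraries. Young replicate 3 was then the lowest library, as it was for the 7 class II genes with 45.5 CPM, whereas with Mertk it was the highest of the young ones. Among the aged libraries the order differed from that of the class II genes with or without Mertk. Aged replicate 2 had the highest sum of the 7 members, 116 CPM, and the lowest macrophage sum, and aged replicate 1 had the lowest member sum, 87.4 CPM, and the highest macrophage sum. The Cd74 to C1qa ratio of CPM, chosen after its values were seen, was 1.43, 2.40 and 1.18 in young and 0.582, 2.56 and 0.948 in aged libraries. The part of macrophage content in the class II levels was not tested.

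For dendritic cells, the 10 markers summed to 17.6 to 22.0 CPM in young and 18.8 to 29.6 CPM in aged libraries, with 5 tested and none past the threshold by edgeR or at an unadjusted p below 0.05. Most of this sum was Zbtb46, a factor that endothelial cells also make, at 15.3 to 16.9 CPM in young and 14.3 to 21.5 CPM in aged libraries. The other 9 summed to 5.04, 4.77 and 2.24 CPM in young and 6.71, 4.53 and 8.07 CPM in aged libraries, a split chosen after the values were seen. The defining marker Flt3 had 0, 0 and 2 counts in young and 0, 4 and 5 in aged libraries, and Itgax had at most 10. For B cells, the 9 markers summed to 14.5, 43.1 and 15.6 CPM in young and 27.8, 23.7 and 34.3 CPM in aged libraries. Young replicate 2, the highest library for this sum, was also the highest for H2-DMb2 and for H2-Ob, both used by B cells. T cell markers summed to 8.22 CPM in young replicate 2 and to 1.61 to 3.54 CPM elsewhere, and Cd3e had at most 6 counts. The 6 general leukocyte markers gave 12.8 to 21.1 CPM in young and 16.6 to 38.8 CPM in aged libraries, which overlap.

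Markers of other tissue also varied between libraries, with sums that overlapped between the ages in each list below. Their part in the class II values was not tested. The 5 markers of lymph node stroma summed to 2.10 to 6.63 CPM in young and 4.69 to 14.7 CPM in aged libraries. Fibroblast markers summed to 1720 to 2720 CPM in young libraries and to 5970, 1550 and 4330 CPM in aged ones. Endothelial markers reached 1690 CPM in aged replicate 3, against 342 to 489 CPM elsewhere. The 6 smooth muscle markers had lower means in aged aorta (median log2 fold change -0.32). Red and white blood cell markers, 6 in all, gave 426 to 664 CPM in young and 387 to 871 CPM in aged libraries.

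**Figure D4:**
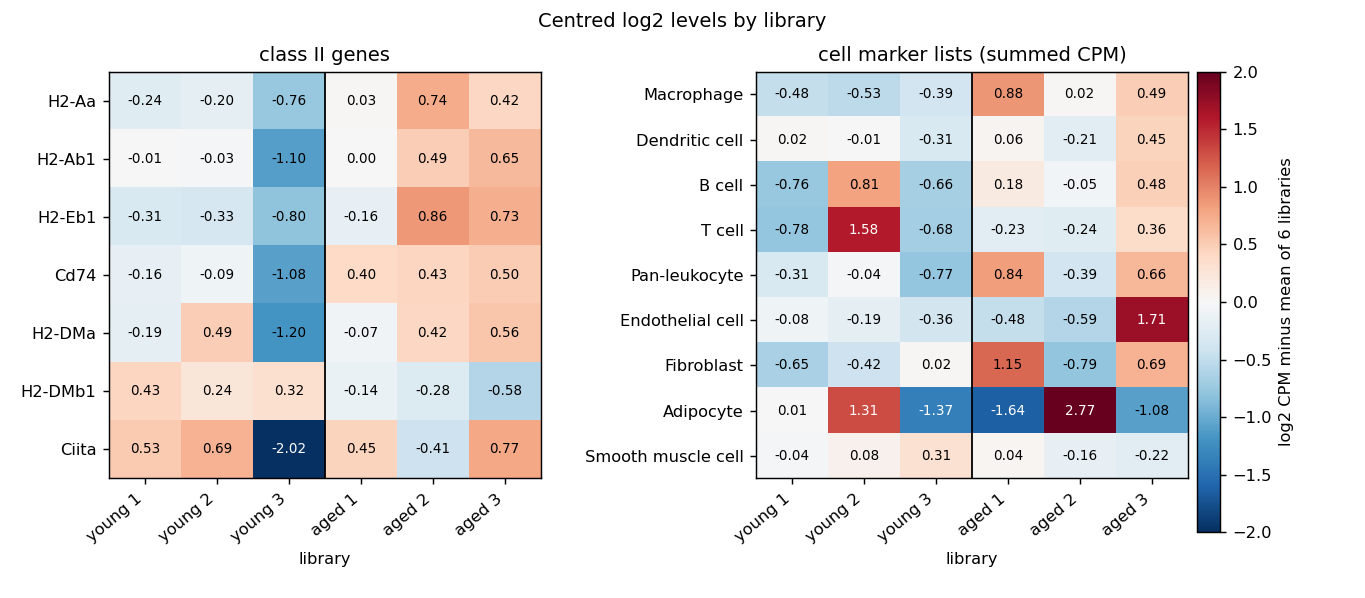
Log2 CPM minus the mean of the 6 libraries for each class II gene (left) and for the summed CPM of each marker list (right), with libraries as columns and a line between the ages. The 4 genes H2-Aa, H2-Ab1, H2-Eb1 and Cd74 are lowest in young 3 and high in aged 2 and aged 3, while the macrophage list is highest in aged 1.

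The other genes of the class II pathway were taken from a list written with earlier results of these data known. Of its names, 18 were measured and 14 tested, and 12 of these had a higher and 2 a lower mean in aged aorta. Their median log2 fold change was 0.54. Of all 16612 genes tested, 8654 were higher, and the median was 0.02. In edgeR the smallest adjusted p of the list was 0.377, so 0 passed the threshold. Before adjustment, 3 genes had an edgeR p under 0.05, all of them higher, and 0 were lower. Of all genes, 5.56% were higher and 4.82% lower by that limit. DESeq2 also called 0, beside 2.26% of all genes.

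Of the proteases that cut antigen and invariant chain, Ctss, which makes the last cut of the invariant chain in many antigen-presenting cells, had 5.99, 2.93 and 4.05 CPM in young and 20.9, 5.88 and 12.2 CPM in aged libraries. The highest library was aged replicate 1, and aged replicate 2 overlapped the young ones. Its log2 fold change was 1.58 (standard error 0.49), with an unadjusted p of 0.0134 and an adjusted p of 0.390 by edgeR. Ctsl had a log2 fold change of 0.64 (edgeR adjusted p = 0.485). Ctsd, Ctsb, Lgmn, Ctsh and Ctsl were the most abundant genes of the list, at a mean of 294, 121, 41.5, 32.1 and 30.9 FPKM, above every member. These lysosomal enzymes serve all cells, and the log2 fold changes of Ctsd, Ctsb, Lgmn and Ctsh were 0.42, 0.17, -0.07 and 0.44, none past the threshold. Ifi30, a lysosomal reductase that opens disulfide bonds of antigens, was at 19.8 ± 3.61 CPM in young and 26 ± 2.55 CPM in aged aorta (SD, n = 3 each), with a log2 fold change of 0.39 (edgeR adjusted p = 0.518).

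The co-stimulatory molecules that accompany class II on activated cells were at low levels. Cd80 had 40, 17 and 26 counts in young and 82, 88 and 40 in aged libraries. The log2 fold change was 1.58 (standard error 0.44), with an unadjusted p of 0.00809 and an adjusted p of 0.377 by edgeR. Its groups did not overlap in CPM, at 0.489 to 0.826 against 1.42 to 2.47. Cd86 had a log2 fold change of 1.63 (unadjusted p of 0.0283 and adjusted p of 0.437 by edgeR), with 25, 21 and 12 counts in young and 82, 25 and 41 in aged libraries. For Cd40 the value was 0.98, resting on 82 counts in aged replicate 3 against 17 to 31 elsewhere, and for Cd83, an activation marker, it was 0.77.

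March1 and March8 encode ubiquitin ligases that take class II from the surface. March1 had 5 to 46 counts and a log2 fold change of 1.09 (edgeR adjusted p = 0.615), and March8, at 42.2 to 57.8 CPM, had 0.01. H2-Oa and H2-Ob encode the chains of H2-DO, which restrains H2-DM. H2-Ob had 15, 47 and 11 counts in young and 16, 10 and 12 in aged libraries, and a log2 fold change of -0.75 (edgeR adjusted p = 0.740). H2-Oa had at most 8 counts and was not tested, and H2-Eb2 had 5 counts in aged replicate 3 and 0 in the others.

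The regulators of class II transcription were measured by 24 genes, of which 22 were tested. Means were higher in aged aorta for 9 and lower for 13, and the median log2 fold change was -0.05. The adjusted threshold was passed by 0 of them in edgeR or DESeq2, beside 0% and 2.26% of all genes. At an unadjusted p below 0.05 in edgeR 1 was higher and 2 were lower, beside 5.56% and 4.82% of all genes. The subunits of the RFX complex, which binds the X box, had log2 fold changes of -0.07 for Rfx5, -0.05 for Rfxap and -0.47 for Rfxank. Rfxank had 30.4, 21.8 and 28.2 CPM in young and 20.2, 21.4 and 16.5 CPM in aged libraries, which did not overlap (unadjusted p of 0.0431 and adjusted p of 0.467 by edgeR).

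The NF-Y subunits, which bind the Y box, had log2 fold changes of -0.76, 0.30 and -0.20 for Nfya, Nfyb and Nfyc. Nfya was at 33.8, 38.8 and 53.6 CPM in young and 27.9, 22.1 and 24.6 CPM in aged libraries, with the smallest p of the list (unadjusted p of 0.00801 and adjusted p of 0.377 by edgeR). Creb1, which binds the cyclic AMP element, had a log2 fold change of -0.08, with 3.71 CPM in young replicate 2 and 9.09 CPM in aged replicate 2 against 34.6 to 42.7 CPM elsewhere. The coactivators Crebbp, Ep300 and Kat2b were at -0.21, -0.27 and 0.04 on the log2 scale.

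Interferon gamma, the main inducer of Ciita, was not detected, with 0 counts of Ifng in 6 of 6 libraries, which allows up to 0.0619 to 0.106 CPM. Its receptor chains had log2 fold changes of 0.83 for Ifngr1 (edgeR adjusted p = 0.558) and -0.48 for Ifngr2 (edgeR adjusted p = 0.563). Ifngr1 was at 83.7 CPM in aged replicate 3 against 23.1 to 31.6 CPM elsewhere. Aged replicate 3 also had the most endothelial RNA, and a link between these values was not tested. Signal carriers behind the receptor were near level, at 0.19 for Jak1, 0.04 for Jak2 and 0.30 for Irf1. Ifngr2, Kat2b, Jak1, Ifngr1 and Jak2 were the most abundant of the list, at 17.1, 11.4, 11.2, 11.1 and 8.62 FPKM.

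Spi1, the myeloid factor PU.1, had 1.59, 1.06 and 2.04 CPM in young and 5.93, 1.86 and 4.99 CPM in aged libraries. Its log2 fold change was 1.44 (standard error 0.50), with an unadjusted p of 0.0222 and an adjusted p of 0.415 by edgeR. Like the macrophage sums, and unlike the class II chains, it was lowest among the aged libraries in replicate 2. Irf8 and Irf4, factors of dendritic cells and B cells, were at 0.40 and 0.30 on the log2 scale and reached no more than 2.60 CPM. Socs1, an inhibitor of this pathway, was at -0.71, with 167 counts in young replicate 1 and 35 to 39 elsewhere. Irf2 and Usf1 were at 0.00 and -0.14, and Prdm1, a repressor of Ciita, had at most 21 counts and was not tested.

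**Figure D5:**
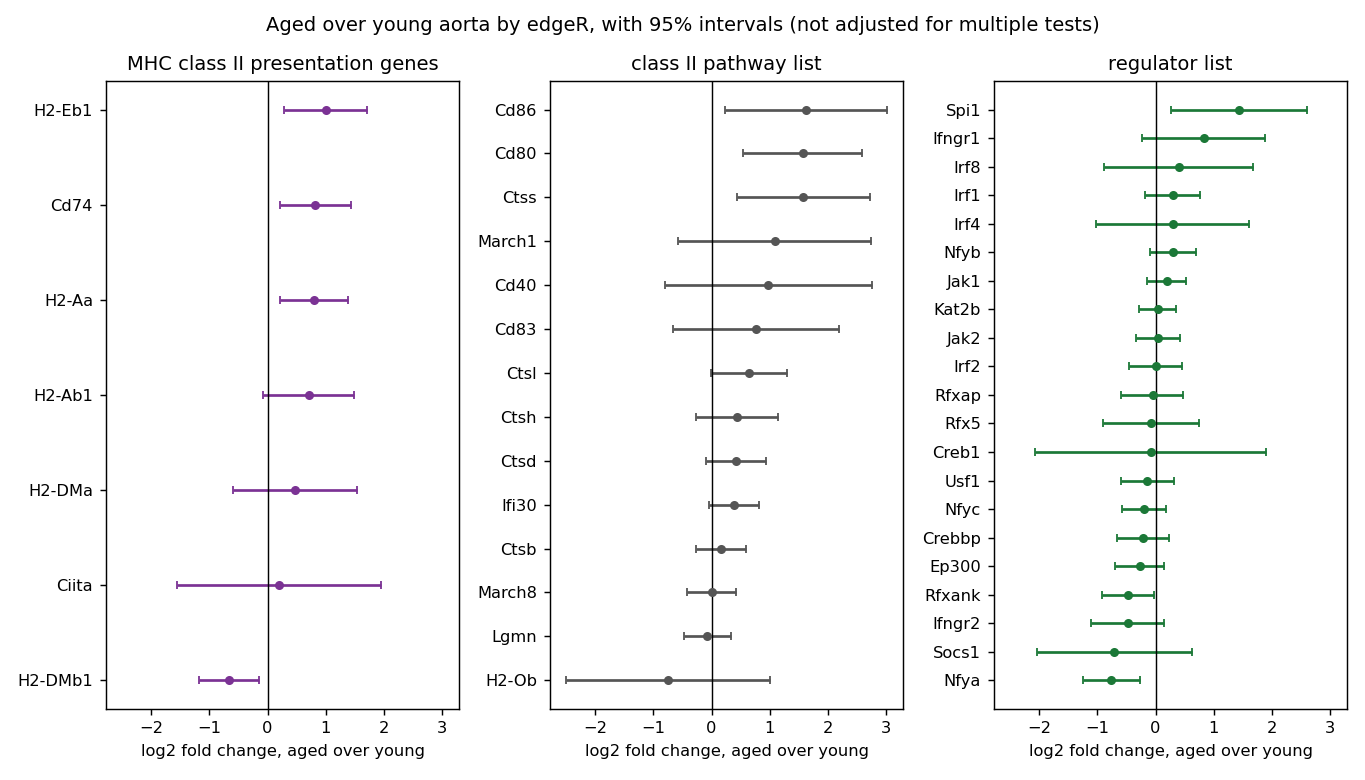
Log2 fold change of aged over young aorta (x axis) by edgeR with TMM scaling and 95% intervals for the class II presentation genes, the pathway list and 21 of the 22 tested genes of the regulator list, each point being 1 gene. The intervals are not adjusted, and none of these genes passed the adjusted threshold. H2-Eb1, Cd74 and H2-Aa lie above 0 with their intervals, H2-DMb1 lies below, and that of Ciita reaches from -1.56 to 1.96.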

How the data were processed

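RNA of 6 mouse aorta libraries was prepared with a SMARTER kit and sequenced single-ended. The authors deposited whole-number read counts per gene, without normalization, and a table of FPKM, scaled for gene length and library. The submitters' processing notes name the genome build mm10, and the aligner, counting tool and strand setting are not given in the sources used here. In R 4.3.3, genes with low counts were removed by filterByExpr of edgeR 4.0.16 (minimum count 10, minimum total 15). The 16612 genes kept were scaled by TMM and fitted by quasi-likelihood, and p-values were adjusted over all of them by Benjamini-Hochberg, with 0.05 as threshold. The fit was tested on simulated data, in which most changes of the size fitted for the members were missed. CPM use TMM library sizes, and centred log2 CPM add a count of 0.5. Depth was 31049632 to 45832185 counts per library. March1 and March8, whose symbols read as dates in the files, were found by Ensembl identifier.

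The members and lists were chosen with earlier results of these data known. Named are the members, of the pathway and regulator lists every tested gene that fitted the prose with the 5 smallest p and the 5 highest FPKM, the 10 genes nearest in course, and Xist and Ddx3y of the sex check. Acta2, C1qa, Mertk, Zbtb46, Brd2, Dexi, BC051142 and genes with few counts were named after their values were seen. Of the lists, 2 genes are not reported here. Same-numbered young and aged libraries were checked for shared deviations (r = 0.072, 0.108 and 0.082, against -0.119 to 0.05 for differently numbered ones). These small values do not settle whether the numbers pair the libraries, which the main fit left unpaired. Alternatives were RLE scaling, other filters, DESeq2 1.42.0, limma 3.58.1 on log2 FPKM (pseudocounts 1 and 0.1), removal of mitochondrial genes, a replicate block and each library left out.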

Additional observations from a re-analysis of the deposited data

How the results depend on the processing

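No member passed the adjusted threshold under any of the 15 alternatives, nor did any gene of the class II pathway list. The members tested were 7, or 6 where the filter removed Ciita, with 1 to 5 at an unadjusted p below 0.05. The signs of H2-Aa (0.46 to 0.96), H2-Ab1 (0.43 to 0.89), H2-Eb1 (0.63 to 1.26), H2-DMa (0.14 to 0.95), H2-DMb1 (-0.87 to -0.54) and Cd74 (0.58 to 1.00) were kept in all of them, as log2 fold changes. Ciita reversed to -0.26 without young replicate 3 and -0.06 without aged replicate 3, and with 1 library left out lay between -0.26 and 0.59, and at 0.74 without young replicate 1 and aged replicate 2 together. It was tested in 12 alternatives, since stricter filters removed it. Over all genes, DESeq2 called 338, and with 1 library left out edgeR called between 0 and 110, the latter without aged replicate 2, and the cause was not tested. The number of members higher in every aged library, 4 with TMM, was 2 when scaling by library totals and 2 with FPKM, while the share over all genes went from 7.74% to 3.05% and 3.24%, alternatives chosen after seeing the data. A replicate block in edgeR gave calls for 0 of 7 members and 0 genes, and log2 fold changes of 0.79 for H2-Aa, 0.75 for H2-Ab1, 0.96 for H2-Eb1, 0.88 for Cd74, 0.58 for H2-DMa, -0.67 for H2-DMb1 and 0.40 for Ciita. With 1 library left out, the aged minus young log2 FPKM ratios over H2-Ab1 were -0.09 to 0.21 for H2-Aa and 0.05 to 0.40 for H2-Eb1. They were -0.29 to 0.06 for H2-DMa and -0.05 to 0.23 for Cd74. The sign was thus not fixed for H2-Aa, H2-DMa and Cd74. Of the members, Ciita had the largest standard error, 0.75.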
